A study of Mus musculus with 8 samples.

Results

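Zinc handling was examined through 6 genes, of 55414 measured, in cultured B16F10 cells, a mouse melanoma line. The genes were taken by symbol: the metallothioneins Mt1 and Mt2, the transcription factor Mtf1, the zinc exporter Slc30a1 and the zinc importers Slc39a10 and Slc39a14. RNA-seq libraries came from 4 groups of 2 libraries each, kept for 24 h at either 21% or 1% O2. WT cells and CypD KO cells were kept at 21% O2. In the CypD KO cells, Ppif, the gene of the mitochondrial chaperone cyclophilin D (CypD), was disrupted with CRISPR/Cas9, and clones were selected with puromycin. Control cells carried the empty pcDNA vector, CypD OE cells carried pcDNA with CypD, and both were G418-selected stable lines kept at 1% O2. Nothing in the labels says that the 2 libraries of a group came from separate cultures, so p-values measure only the spread between these libraries, which may be technical.

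Metallothioneins are small cysteine-rich proteins that bind zinc, copper and cadmium and buffer the free zinc of the cell. When free zinc rises, the zinc finger protein MTF1 binds metal response elements in the promoters of Mt1, Mt2 and Slc30a1, so that zinc is bound and pumped out. The SLC39 (ZIP) proteins move zinc into the cytosol, from outside the cell or from organelles, and the SLC30 (ZnT) proteins move it out. Metallothionein genes are also known to respond to glucocorticoids, oxidative stress and low oxygen.

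Mt1 and Mt2 are neighbours on one strand of chromosome 8. In GRCm39, Mt1 (ENSMUSG00000031765) lies at chr8:94905710-94906955 and Mt2 (ENSMUSG00000031762) at chr8:94898819-94900207, with 5502 bases between them. The other members lie elsewhere: Mtf1 (ENSMUSG00000028890) at chr4:124695897-124743593, Slc30a1 (ENSMUSG00000037434) at chr1:191638808-191645361, Slc39a10 (ENSMUSG00000025986) at chr1:46845872-46964964 and Slc39a14 (ENSMUSG00000022094) at chr14:70540678-70588914. Slc39a10 and Slc39a14 are on the minus strand and the other 4 genes on the plus strand. The Mt1 transcript of 549 bases and the Mt2 transcript of 682 bases share no run of more than 20 bases, which is shorter than the 150-base reads.

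Windows around annotated starts were searched for the core of the metal response element, as TGCACNC or TGCGCNC on both strands. They may not cover the promoter of every transcript of a gene. RefSeq windows reaching from 250 bases before to 50 bases after the annotated start (GRCm38.p6) were available for 5 of the 6 members, and each was found exactly once in GRCm39. The Mt2 window held 4 cores, the Mt1 window 3 and the Slc30a1 window 2. The windows of Mtf1 and of both starts of Slc39a10 held 0. Of 32851 mouse promoter windows of this length, 25.7% held at least 1 core, 7.11% at least 2, 1.97% at least 3 and 0.517% at least 4. The sequences below are in 5′ to 3′ direction on the plus strand, with the cores in capitals. For Mt1 and Mt2 they end where the transcript that GENCODE marks as canonical begins. This is 7 bases before the RefSeq start of Mt1 and 114 bases before that of Mt2. These canonical transcripts, of 762 and 748 bases, are not those of 549 and 682 bases above, whose starts were not located. Other annotated Mt2 transcripts begin farther upstream, at the first base of the gene, and hold the printed stretch in their first intron. Short stretches are added for Mt1, from its RefSeq start on, and for Slc30a1, around the core 43 bases before its start.
Mt1, chr8:94905467-94905709: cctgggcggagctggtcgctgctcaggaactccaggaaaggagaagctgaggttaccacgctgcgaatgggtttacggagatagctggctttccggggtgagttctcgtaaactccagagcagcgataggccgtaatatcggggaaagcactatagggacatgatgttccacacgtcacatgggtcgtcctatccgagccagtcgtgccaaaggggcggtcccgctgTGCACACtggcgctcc
Mt1, chr8:94905717-94905746: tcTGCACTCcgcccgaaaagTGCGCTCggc
Mt2, chr8:94898996-94899131: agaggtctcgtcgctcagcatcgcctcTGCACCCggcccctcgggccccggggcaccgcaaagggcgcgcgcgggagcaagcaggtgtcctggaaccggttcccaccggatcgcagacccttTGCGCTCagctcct
Slc30a1, chr1:191638839-191638868: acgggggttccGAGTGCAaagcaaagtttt
The Mt1 stretches hold the 3 cores of that window, the Mt2 sequence holds 2 of its 4, and the Slc30a1 stretch holds 1 of its 2, read on the opposite strand. The core of the hypoxia response element, searched as ACGTG or GCGTG on both strands, occurred 2 times each in the Mt1 and Mt2 windows and 1 time in that of Slc30a1, and 43.8% of all windows held at least 1. In the Mt2 window, 1 of these overlapped a metal response core.

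Levels are given as TPM, the abundance of a gene's transcripts scaled to the same total in each library and corrected for transcript length. These values carry no read counts, and the depth behind a value is therefore unknown. Each of the 6 members exceeded 1 TPM in every library and was among the 13526 genes tested. Differences are log2 fold changes of TPM + 1, tested with limma, and a gene was called at an adjusted p under 0.05, with Benjamini-Hochberg adjustment over all genes tested. The labels were checked with Ppif itself, which had 50.7 and 50.0 TPM in WT but 10.4 and 12.1 TPM after knockout (log2 fold change -2.07). Control cells had 44.6 and 42.3 TPM of Ppif, and cells labelled CypD OE had 50.3 and 49.3 TPM (log2 fold change 0.19, limma adjusted p = 0.079). The difference in Ppif RNA was thus not past the threshold. The paper reports overexpression of the CypD protein in its stable clones, by western blot, which RNA levels do not measure. Between 17942 and 19692 genes were above 0 per library, and both CypD KO libraries, at 19456 and 19692, were above the other 6, which reached 18335. The 7 melanocyte and melanoma markers (Pmel, Tyr, Tyrp1, Dct, Mlana, Mitf and Sox10) summed to 12400 to 21000 TPM. The 5 fibroblast markers summed to 2.42 to 11.9 TPM, with Col1a2 at 1.09 to 11.4 TPM and Dcn listed at 0 in every library. The 5 immune markers summed to 24.0 and 25.4 TPM in CypD KO cells and 1.20 to 5.21 TPM elsewhere. Of these, Cd68 was at 21.9 and 23.3 TPM in CypD KO cells and 1.13 to 4.81 TPM elsewhere. Lyz2 was at 1.85 and 1.80 TPM in CypD KO cells and 0 to 0.64 TPM elsewhere (log2 fold change 1.03 against WT). Ptprc did not exceed 0.02 TPM and Cd79a 0.43 TPM, and Cd3e was listed at 0 in every library. The 3 endothelial markers did not exceed 1.18 TPM in sum, nor the 3 keratinocyte markers 0.03 TPM.

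Mt1 and Mt2 were the abundant members, and their levels were lowest in the cells labelled CypD OE. Mt1 reached 469 and 451 TPM in WT, 472 and 497 TPM in CypD KO, 665 and 643 TPM in Control, and 344 and 350 TPM in CypD OE. The Control libraries were the highest and the CypD OE libraries the lowest, and none of the 4 groups overlapped. In bulk RNA, fewer cells with a transcript and less of it per cell cannot be told apart. Mt2 reached 253 and 221 TPM in WT, 255 and 262 TPM in CypD KO, 260 and 306 TPM in Control, and 143 and 138 TPM in CypD OE. For Mt2 only the CypD OE libraries stood apart, since the Control and CypD KO ranges overlapped and WT came within 3 TPM of CypD KO. Ranked by TPM among all genes of its library, Mt1 held places 202 to 365 and Mt2 places 438 to 1085. The other metallothionein genes of the cluster, Mt3, best known from brain, and Mt4, known from stratified epithelium, were listed at 0 in every library.

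Together the metallothioneins made up 722 and 672 TPM in WT, 727 and 759 TPM in CypD KO, 925 and 949 TPM in Control and 487 and 488 TPM in CypD OE. Mt1 exceeded Mt2 in all 8 libraries. The ratio of Mt1 to Mt2 was 1.86 and 2.04 in WT, 1.85 and 1.90 in CypD KO, 2.56 and 2.10 in Control, and 2.40 and 2.54 in CypD OE. The 4 libraries kept at 1% O2 thus lay above the 4 kept at 21% O2, although oxygen, vector and selected clone differ together between them and cannot be told apart. The ratio is given as a description and was not tested.

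**Figure D1:**
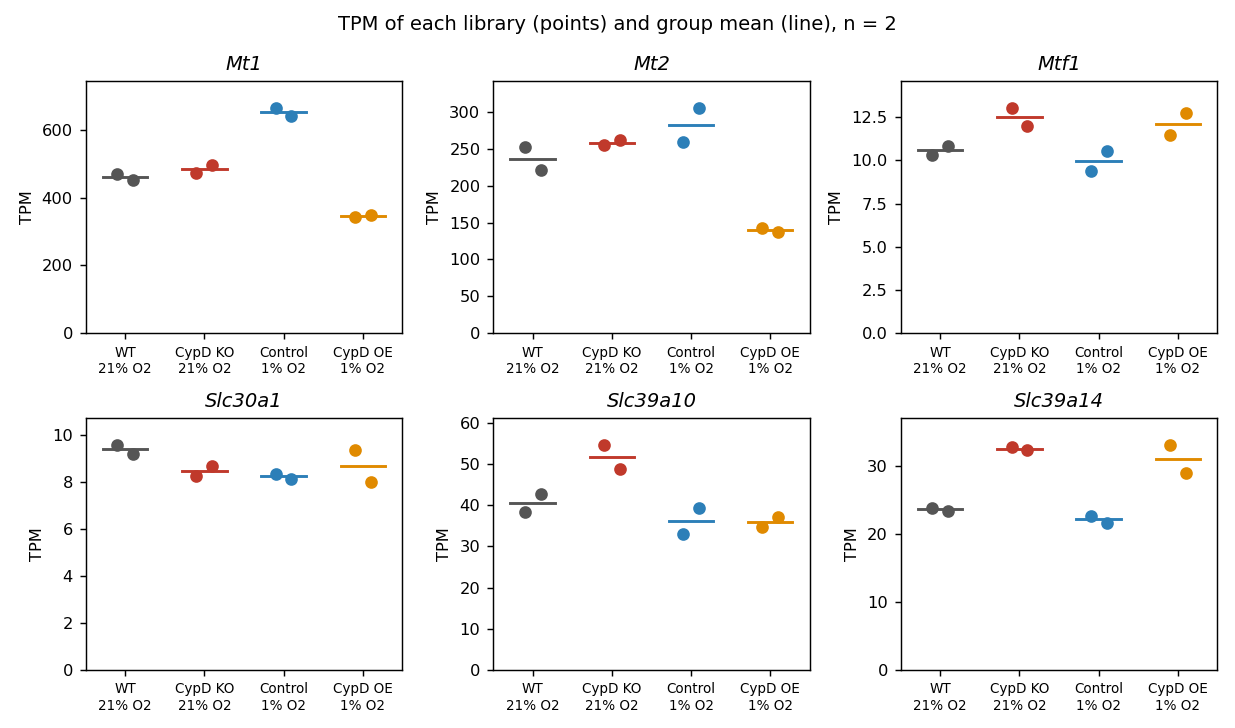
TPM of the 6 members in each of the 8 libraries (points), with the mean of each group of 2 (line), on axes that start at 0 and differ between genes. Mt1 and Mt2 are lowest in the CypD OE libraries, at 344 and 350 TPM and at 143 and 138 TPM, while Slc39a14 is higher in CypD KO and CypD OE than in WT and Control.

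Slc39a10 and Slc39a14 followed in abundance, and Mtf1 and Slc30a1 were low in every group. Slc39a14 encodes ZIP14, which carries zinc, iron and manganese, and had values of 23.9 and 23.4 TPM in WT, 32.8 and 32.4 TPM in CypD KO, 22.7 and 21.7 TPM in Control, and 33.2 and 29.1 TPM in CypD OE. Both manipulated lines therefore lay above both reference lines, with no overlap. Slc39a10 encodes the plasma membrane importer ZIP10 and had values of 38.3 and 42.9 TPM in WT, 54.8 and 48.9 TPM in CypD KO, 33.1 and 39.3 TPM in Control, and 34.7 and 37.2 TPM in CypD OE. The CypD KO libraries were the highest, and the CypD OE values lay inside the Control range.

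Mtf1, the zinc sensor itself, had values of 10.3 and 10.9 TPM in WT, 13.04 and 11.99 TPM in CypD KO, 9.38 and 10.5 TPM in Control, and 11.5 and 12.8 TPM in CypD OE. Slc30a1 encodes ZnT1, the main zinc exporter of the plasma membrane, and had values of 9.58 and 9.18 TPM in WT, 8.24 and 8.66 TPM in CypD KO, 8.35 and 8.12 TPM in Control, and 9.36 and 7.98 TPM in CypD OE. The Slc30a1 values of CypD OE spanned those of CypD KO and Control.

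In order of group means, Mt1 ran from Control (654 ± 16.03 TPM, SD, n = 2) through CypD KO (484 ± 17.5) and WT (460 ± 12.8) to CypD OE (347 ± 4.26). Of these neighbours in the order, only CypD KO and WT did not differ by the test (limma adjusted p = 0.14). Mt2 followed the same order, from Control (283 ± 32.5) through CypD KO (259 ± 4.999) and WT (237 ± 22.2) to CypD OE (141 ± 3.79), and only the step from WT to CypD OE passed the test. Slc39a14 ran from CypD KO (32.6 ± 0.255) and CypD OE (31.1 ± 2.91) to WT (23.7 ± 0.354) and Control (22.2 ± 0.721), and only the step between CypD OE and WT passed. Slc39a10 ran from CypD KO (51.8 ± 4.14) through WT (40.6 ± 3.22) and Control (36.2 ± 4.38) to CypD OE (36.0 ± 1.77), and only the step from CypD KO to WT passed. For Mtf1 (group means 9.96 to 12.5 TPM) and Slc30a1 (8.24 to 9.38 TPM), no neighbouring groups differed by the test.

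To ask whether loss of CypD at 21% O2 was accompanied by altered RNA levels of these zinc-handling genes, CypD KO cells were compared with WT cells. Zinc itself and the encoded proteins were not measured here. The zinc importers Slc39a14 and Slc39a10 rose, and no member fell. Slc39a14 rose to 138% of its WT mean (log2 fold change 0.45 ± 0.07 SE, limma adjusted p = 0.0024). Slc39a10 rose to 128% (log2 fold change 0.35 ± 0.10 SE, limma adjusted p = 0.029). Mtf1 stood at 118% of WT (log2 fold change 0.22, 95% interval -0.01 to 0.45, limma adjusted p = 0.099). Thus 2 of the 6 members were called, both higher, where 48.4% of all genes tested were called, 30.1% higher and 18.4% lower. The share among the members was no larger than this background. The higher share of the called genes, 62.1%, was 47.9% after median-of-ratios rescaling.

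The metallothioneins did not pass the test in CypD KO cells. Mt1 stood at 105% of WT (log2 fold change 0.07, 95% interval -0.01 to 0.16) and Mt2 at 109% (log2 fold change 0.13, 95% interval -0.08 to 0.34). With 1 library left out, these differences ran from 0.04 to 0.11 for Mt1 and from 0.03 to 0.22 for Mt2, and neither was called. Slc30a1 stood at 90.1% (log2 fold change -0.14, 95% interval -0.37 to 0.10). These 95% intervals lie within 0.4 of 0 on the log2 scale. In the same comparison 7 of 8 hypoxia markers rose and 1 fell, with Bnip3 at a log2 fold change of 4.22 and Vegfa at 2.46.

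The Slc39a10 call in CypD KO cells was less stable than that of Slc39a14. Without WT replicate 1 its log2 fold change was 0.27 (limma adjusted p = 0.14), without CypD KO replicate 1 it was 0.27 (adjusted p = 0.15), and after median-of-ratios rescaling it was 0.23 (adjusted p = 0.090). Other levels differed between CypD KO and WT cells as well. Cd68 and Lyz2 were higher in CypD KO, as was the number of genes above 0. Of the 7 melanocyte and melanoma markers, 5 fell and 1 rose. Their sums were 15750 and 15670 TPM in WT and 12590 and 12430 TPM in CypD KO. Col1a2 fell as well (-1.79). The part of these levels in the rise of the importers was not tested. Slc39a14 stayed between 0.43 and 0.46 when any 1 of the 8 libraries was left out, with a limma adjusted p of at most 0.016.

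To ask about raised CypD at 1% O2, the libraries labelled CypD OE were compared with Control. Both metallothioneins fell and Slc39a14 rose. Mt1 fell to 53.1% of its Control mean (log2 fold change -0.91 ± 0.04 SE, limma adjusted p = 9.04e-06) and Mt2 to 49.7% (log2 fold change -1.0 ± 0.09 SE, limma adjusted p = 0.00026). Only 3.85% of all genes tested had a lower log2 fold change than Mt1 and 3.14% a lower one than Mt2. Slc39a14 rose to 140% (log2 fold change 0.47 ± 0.07 SE, limma adjusted p = 0.0028). The other 3 members did not pass the test: Mtf1 stood at 122% of Control (log2 fold change 0.26, limma adjusted p = 0.075), Slc30a1 at 105% (0.06, 95% interval -0.17 to 0.30) and Slc39a10 at 99.4% (0.00, 95% interval -0.25 to 0.24). In all, 3 of 6 members were called, where 37.4% of all genes tested were called, 19.0% higher and 18.3% lower. With 6 members this share is near the background. Slc30a1, whose promoter window also held metal response cores, was not called. MTF1 binding was not measured, and whether the cores bear on any of these differences was not tested. Whether the difference of any gene in CypD OE differed from that in CypD KO cells was not tested.

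Other levels moved with the metallothioneins between these groups. The summed level of the 7 melanocyte and melanoma markers was 20450 and 20980 TPM in Control and 13760 and 13590 TPM in CypD OE, and 4 of the 7 markers fell while 1 rose. The hypoxia markers fell in 8 of 8 cases, from Bnip3 at a log2 fold change of -4.47 to Ndrg1 at -1.25. The share of all TPM taken by the highest gene, mt-Atp8, was 3.95% and 3.98% in Control and 5.63% and 5.78% in CypD OE. Of the markers of other cell types, Col1a2 fell from 11.4 and 9.65 TPM to 3.82 and 2.22 TPM (-1.54) and Cd68 from 4.81 and 4.20 TPM to 1.13 and 1.91 TPM (-1.14). The part of these levels in the metallothionein result was not tested.

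**Figure D2:**
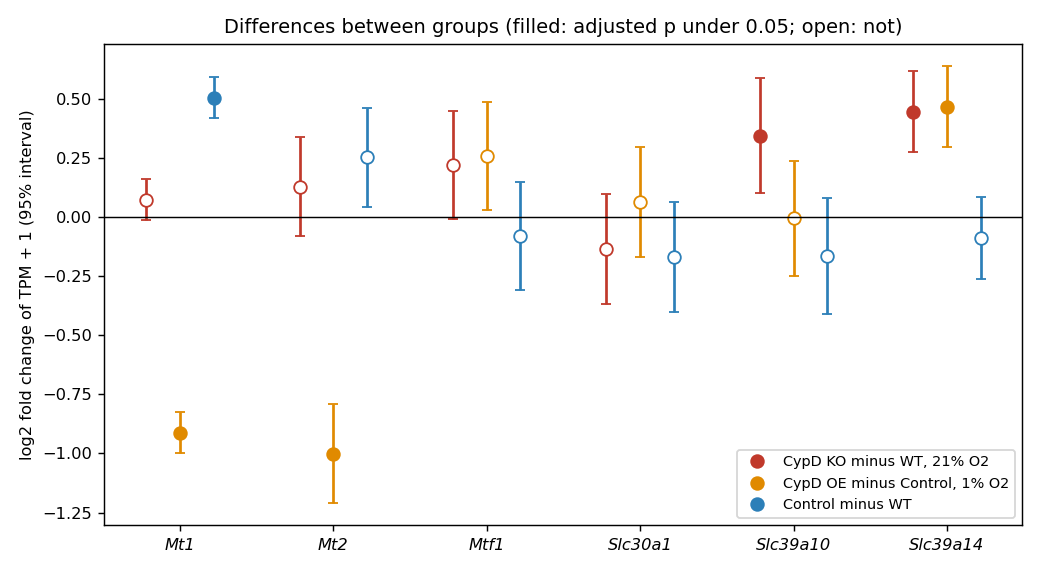
Log2 fold change of TPM + 1 for the 6 members in 3 comparisons, with 95% intervals from limma; filled points passed an adjusted p of 0.05 and open points did not. Mt1 and Mt2 lie near -0.91 and -1.0 for CypD OE minus Control and close to 0 for CypD KO minus WT, and Slc39a14 lies near 0.45 and 0.47 in these comparisons.

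The Control and WT groups differed in oxygen, vector and clone together, and the comparison with WT shares its Control libraries with the one above. Mt1 was higher in Control, at 142% of WT (log2 fold change 0.51 ± 0.04 SE, limma adjusted p = 0.00027), and was the only 1 of the 6 members called, where 24.2% of all genes tested were called. Mt2 stood at 119% (log2 fold change 0.25, limma adjusted p = 0.081), and without Control replicate 1 at a log2 fold change of 0.37 with a limma adjusted p of 0.033. All 8 hypoxia markers and 6 of the 7 melanocyte and melanoma markers rose in the same comparison, and their part in the Mt1 difference was not tested. Mtf1, Slc30a1, Slc39a10 and Slc39a14 had log2 fold changes of -0.17 to -0.08 and did not pass the test.

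The cells labelled CypD OE were also set against WT, a comparison that does not use Control. Oxygen, vector and selected clone differ together in it, and oxygen and line differ together in the comparisons with CypD KO cells below. Their parts cannot be told apart. Mt1 fell to 75.4% of WT (log2 fold change -0.41) and Mt2 to 59.3% (-0.75), and Slc39a14 rose to 132% (0.38), so 3 of 6 members were called where 27.7% of all genes were. Of the 8 hypoxia markers, 0 were higher and 1 was lower in CypD OE than in WT, and 7 did not pass the test. Bnip3 was at 13.6 and 12.5 TPM in CypD OE and 14.4 and 11.1 TPM in WT. Against CypD KO cells, Control had higher Mt1 (0.43) and lower Slc39a14 (-0.54), Slc39a10 (-0.51) and Mtf1 (-0.30), with 44.0% of all genes called. The Mtf1 call did not hold in several fits, among them those without CypD KO replicate 1 (-0.25, limma adjusted p = 0.18) and without Control replicate 1 (-0.23, adjusted p = 0.18). Also against CypD KO cells, CypD OE had lower Mt1 (-0.48), Mt2 (-0.88) and Slc39a10 (-0.51), with 48.9% of all genes called.

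The genes around the metallothionein cluster were also lower in the cells labelled CypD OE. Of the 3 protein-coding genes on each side, 5 were tested, and all 5 fell against Control, where 18.3% of all genes tested fell. Nudt21, a subunit of the polyadenylation factor CFIm, was at 86.7 and 89.0 TPM in Control and 66.5 and 59.5 TPM in CypD OE (log2 fold change -0.48). Ogfod1, a ribosomal prolyl hydroxylase, was at 16.1 and 17.7 TPM against 12.5 and 12.5 TPM (-0.40). Bbs2, a subunit of the BBSome of cilia, was at 11.5 and 8.50 TPM against 3.71 and 4.20 TPM (-1.14). On the other side, the nuclear pore gene Nup93 was at 57.4 and 60.6 TPM against 47.3 and 41.5 TPM (-0.41), and Herpud1, an endoplasmic reticulum stress gene, was at 46.7 and 49.4 TPM against 26.7 and 26.2 TPM (-0.84). No Control library overlapped a CypD OE library for any of the 5 genes. With 2 libraries against 2, an exact two-sided permutation test cannot give a p under 0.333. The share of all genes without overlap was not counted. The sixth, the kidney cotransporter gene Slc12a3, did not exceed 0.22 TPM and was not tested.

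This extended beyond the nearest genes. Among the 42 other tested genes that start within 2 Mb of Mt1, 36 had a log2 fold change below 0 for CypD OE minus Control, 26 fell and 0 rose, with a median of -0.34. Without the nearest neighbours, 21 of 37 fell and 0 rose, with a median of -0.33. Of all genes tested, 18.3% fell and 19.0% rose in this comparison. The median over all genes tested was 0.00, and over the 715 tested genes of chromosome 8 it was 0.11. From 4 to 2 Mb before Mt1, the median of 7 genes was -0.09, and from 6 to 4 Mb before it the median of 4 genes was 0.04. On the far side, only 1 gene was tested between 2 and 4 Mb (log2 fold change 0.30). Against WT, the same 42 genes had a median of -0.49 in CypD OE, with 29 lower and 0 higher. There 27.7% of all genes tested were called. For CypD KO minus WT, 5 of the 42 fell and 10 rose (median 0.17), where 18.4% of all genes tested fell and 30.1% rose. For Control minus WT, 10 fell and 2 rose (median -0.05), where 24.2% of all genes tested were called.

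**Figure D3:**
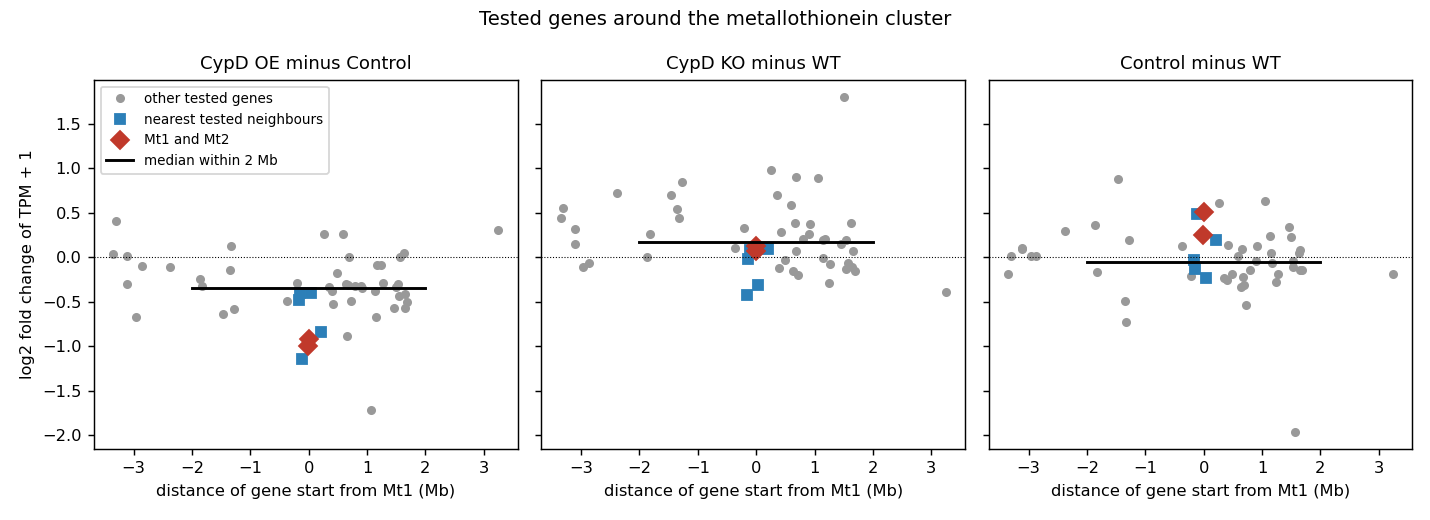
Log2 fold change of TPM + 1 of tested genes on chromosome 8 against the distance of their start from that of Mt1, in Mb, for 3 comparisons; the line marks the median within 2 Mb, without Mt1 and Mt2. For CypD OE minus Control the median is -0.34 and Mt1 and Mt2 lie below it, whereas the medians for CypD KO minus WT and Control minus WT are 0.17 and -0.05.

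The fall of the metallothioneins against Control was larger than that of their neighbourhood. Of the 42 genes, 2 had a lower log2 fold change than Mt1, and the same number a lower one than Mt2. After each gene was centred on the other tested genes within 2 Mb, Mt1 was still lower in CypD OE than in Control (log2 fold change -0.51, limma adjusted p = 0.00051), as was Mt2 (-0.60, limma adjusted p = 0.0028). The fall against WT was not larger for Mt1. There 24 of the 42 genes lay below Mt1, and after centring its log2 fold change was 0.04 (limma adjusted p = 0.62), against -0.31 for Mt2 (limma adjusted p = 0.053). Against CypD KO, Mt1 likewise went from -0.48 to 0.10 (limma adjusted p = 0.16) and Mt2 from -0.88 to -0.30 (limma adjusted p = 0.028). The rise of Mt1 from WT to Control was 0.55 after centring (limma adjusted p = 0.00076). This centring was chosen after the values of the neighbours had been seen, and the part of the neighbourhood in the metallothionein result was not tested further.

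The surroundings of the other members differed less in their medians for CypD OE minus Control. The genes within 2 Mb had medians of 0.03 around Mtf1 (48 genes), -0.04 around Slc30a1 (29 genes), 0.10 around Slc39a10 (5 genes) and -0.14 around Slc39a14 (25 genes). Of these, 6 fell and 6 rose around Mtf1, and 4 fell and 4 rose around Slc30a1. Around Slc39a10 0 fell and 2 rose, and around Slc39a14 10 fell and 5 rose. Of all genes tested, 18.3% fell and 19.0% rose. Slc39a14 stayed higher after centring, in CypD OE (0.55, limma adjusted p = 0.0023) and in CypD KO cells (0.25, limma adjusted p = 0.033). The Slc39a10 difference between CypD KO and WT did not, at -0.13 (limma adjusted p = 0.60), although its window held only 5 genes, with a median of 0.74. The lower Slc39a10 of Control and CypD OE against CypD KO cells (-0.51 in both) was likewise not called after centring and its sign turned, to 0.14 (limma adjusted p = 0.57) and 0.02 (limma adjusted p = 0.95).

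The wider family of zinc transporters was examined through the 21 other SLC30 and SLC39 genes, of which 13 passed the filter on low values. In CypD KO cells 6 of the 13 rose and 0 fell, where 30.1% of all genes tested rose and 18.4% fell, with a median log2 fold change of 0.16 against 0.09 for all genes tested. In the cells labelled CypD OE, 3 rose and 6 fell against Control, where 19.0% and 18.3% of all genes did, with a median of -0.17 against 0.00. In Control against WT, 2 rose and 2 fell, where 24.2% of all genes were called. The counts for the importers and exporters that follow are of 7 and 6 genes, and are to be read against the same shares.

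Among the importers, 4 of 7 tested SLC39 genes rose in CypD KO cells. Slc39a13 encodes ZIP13, a transporter of intracellular vesicles and the Golgi, and was at 16.7 and 16.6 TPM in WT, 48.9 and 49.1 TPM in CypD KO, 18.4 and 20.4 TPM in Control and 13.2 and 15.7 TPM in CypD OE. It rose by a log2 fold change of 1.50 in CypD KO cells (limma adjusted p = 3.11e-05) and fell by 0.40 in CypD OE (limma adjusted p = 0.013). Slc39a1, the plasma membrane importer ZIP1, was at 71.1 and 67.7 TPM in WT and 112 and 117 TPM in CypD KO (log2 fold change 0.72), and at 76.0 and 76.5 TPM in Control and 64.5 and 65.9 TPM in CypD OE (-0.22). Slc39a3 took the same directions, from 6.17 and 6.26 TPM in WT to 8.65 and 8.23 TPM in CypD KO (0.39), and from 9.98 and 9.13 TPM in Control to 7.94 and 7.45 TPM in CypD OE (-0.28, limma adjusted p = 0.049). Slc39a11 rose in CypD KO cells (0.59) from 12.9 and 8.63 TPM to 17.4 and 15.6 TPM, and did not pass the test in CypD OE (0.03). Unlike these importers, Slc39a14 rose in both comparisons. The fourth SLC39 gene that fell in CypD OE was Slc39a9 (-0.37), the Golgi transporter ZIP9, named after its values were seen.

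Among the exporters, 2 of 6 tested SLC30 genes rose in CypD KO cells, and 3 rose and 2 fell in CypD OE. Slc30a4, the vesicle exporter ZnT4, was at 17.0 and 17.3 TPM in WT and 27.5 and 25.9 TPM in CypD KO (log2 fold change 0.61), and at 13.3 and 13.3 TPM in Control and 20.0 and 19.4 TPM in CypD OE (0.53), so that it rose in both, as Slc39a14 did. Slc30a5, which loads zinc into the early secretory pathway, rose from 43.6 and 40.4 TPM to 64.5 and 69.5 TPM in CypD OE (0.66). Slc30a7, a Golgi exporter, fell from 21.7 and 21.0 TPM to 13.7 and 10.2 TPM (-0.80, limma adjusted p = 0.047). Slc30a2 was near the lower limit of the test, at 0.40 and 0.56 TPM in Control and 1.26 and 1.33 TPM in CypD OE (0.63). Slc30a9, named after its values were seen, rose in CypD KO cells (0.43) and fell in CypD OE (-0.52).

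**Figure D4:**
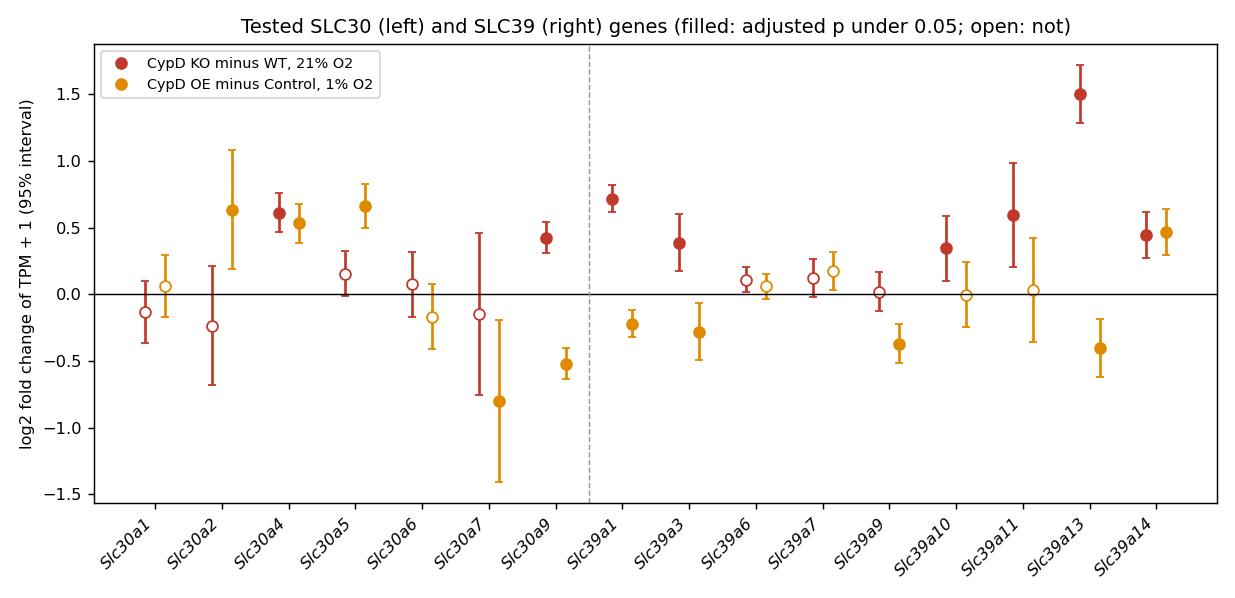
Log2 fold change of TPM + 1 with 95% intervals for the tested SLC30 genes (left of the dashed line) and SLC39 genes (right), members included; filled points passed an adjusted p of 0.05. Slc39a13, at 1.50 for CypD KO minus WT, is the highest point, and Slc30a4 and Slc39a14 are filled above 0 in both comparisons.

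Genes of related metals and stimuli give the setting of these values, and their counts stand beside 48.4% of all genes called in CypD KO cells (30.1% higher, 18.4% lower) and 37.4% in CypD OE (19.0% higher, 18.3% lower). Of 12 tested copper-handling genes, 6 rose and 3 fell in CypD KO cells, and 2 rose and 3 fell in CypD OE. Cp, the copper-carrying ferroxidase ceruloplasmin, rose in CypD KO cells (log2 fold change 1.05) and fell in CypD OE (-1.77). Slc31a2 (1.14) and the copper chaperone Ccs (0.75) rose in CypD KO cells, and the copper pump Atp7a fell in CypD OE (-0.75). Of 9 tested genes responsive to metal and oxidative stress, 2 rose and 3 fell in CypD KO cells, and 6 rose and 1 fell in CypD OE. In that last group the fall was that of Hmox1 (-0.83), the heme oxygenase gene, which had risen in CypD KO cells (2.25). Slc7a11 (3.61), Nqo1 (1.31) and Srxn1 (1.17) rose in CypD OE, where the metallothioneins fell. These genes were lower in Control than in WT, at -2.01, -1.19 and -1.07. In CypD KO cells Nqo1 fell (-0.96), Srxn1 rose (0.55) and Slc7a11 did not pass the test (0.20). Of 8 tested glucocorticoid-responsive genes, 6 rose and 0 fell in CypD KO cells, and 3 rose and 3 fell in CypD OE. Dusp1 (2.30), Sgk1 (1.83), Klf9 (1.48) and Tsc22d3 (1.07) rose in CypD KO cells, where the metallothioneins did not pass the test. In CypD OE, Dusp1 (-0.75) and Klf9 (-0.96) fell and Sgk1 rose (1.08). Whether any of these genes bear on the metallothioneins was not tested.

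Genes with a pattern like that of each member were sought among the 2413 tested genes whose group means spanned at least 1 on the log2 scale, by Pearson's r over the 8 libraries. Mt1 was most like H1f0 (r = 0.99), Nr4a3 (0.99) and Myadm (0.986), and Mt2 most like Pltp (0.982), Cpne4 (0.978) and Adgre5 (0.975). H1f0, a linker histone gene, was at 94.5 and 92.3 TPM in WT, 90.0 and 95.1 TPM in CypD KO, 132 and 137 TPM in Control and 66.7 and 63.6 TPM in CypD OE, the same order of groups at the ends as Mt1. Slc39a14 was most like Tmem229b (0.981), Id1 (0.977) and Itga1 (0.976). Id1, an inhibitor of basic helix-loop-helix factors, was at 28.1 and 25.7 TPM in WT, 59.0 and 57.5 TPM in CypD KO, 20.1 and 19.2 TPM in Control and 49.4 and 46.6 TPM in CypD OE. Slc39a10 was most like Lgr6 (0.978), Pde4a (0.976) and Pgap6 (0.963), and Mtf1 most like Cspg4 (0.942), Gm10689 (0.932) and Cyp2j9 (0.931). Slc30a1 was most like Gm20479 (0.895), Rtn2 (0.837) and Gm12903 (0.834), 2 of which were at or near 0 in most libraries. The 8 points of each r are 4 groups of 2 libraries, and r is given as a description.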

How the data were processed

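RNA-seq was performed on 8 libraries of B16F10 cells, 2 in each of 4 groups taken from the sample labels. After depletion of ribosomal RNA, paired reads of 150 bases were obtained. The authors used Cutadapt 3.4 for trimming, STAR 2.7.8a for alignment (GRCm39) and RSEM 1.3.1 for quantification, and deposited TPM of 55414 genes, scaled to a total of 1000000 in each library. TPM of 1 gene depends on all others and holds no depth. The study's own tests used DESeq2 1.26.0 on counts, which were not used here. The RNA kit differs between the labels and the methods.

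A gene was tested if 2 or more libraries reached 1 TPM (13526 genes). Log2(TPM + 1) was fitted by limma 3.58.1 (R 4.3.3; lmFit, eBayes with trend), with 4 group means over all 8 libraries and two-sided tests. P-values were adjusted by Benjamini-Hochberg over all genes tested, with a threshold of 0.05. The members, the gene lists and the tests were chosen with earlier results of these data known. All 6 members were described. From each list up to 4 genes were named, those with the largest log2 fold change of either sign among the genes called in CypD KO minus WT or CypD OE minus Control, besides the 3 protein-coding neighbours on each side of the cluster and the 3 genes most like each member. Lists were described by their counts and medians. The fit was checked on simulated data. Alternatives were a pseudocount of 0.1, a filter of 5 TPM or none, rescaling by median of ratios, a replicate block, no trend, a fit of the 4 libraries compared, and leaving out each library. Promoter windows came from RefSeq, and gene positions from GENCODE for GRCm39, which held 98.8% of the gene identifiers. Python 3.11.15 and pandas 2.3.3 were used.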

Additional observations from a re-analysis of the deposited data

How the results depend on the processing

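The 6 members in 6 comparisons gave 36 differences, of which 16 were called. All 16 calls were kept with a pseudocount of 0.1, a filter of 5 TPM, or without Control replicate 2 or either CypD OE library. The fall of Mt1 and Mt2 and the rise of Slc39a14 in CypD OE against Control, and the rise of Slc39a14 in CypD KO cells, were called under all 16 alternatives, at log2 fold changes of -0.937 to -0.511, -1.12 to -0.599, 0.375 to 0.561 and 0.254 to 0.462. The cause of the changes given next was not tested.

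For CypD KO minus WT, Slc39a10 lost its call without the filter on low TPM (0.345, limma adjusted p = 0.066), without a trend (0.345, limma adjusted p = 0.051) and after median-of-ratios rescaling (0.234), and ranged from 0.265 to 0.425 when 1 library was left out. Over all its alternatives the limma adjusted p ran from 0.0187 to 0.601. The number of members called was then 1 in place of 2, and 1 to 2 over the libraries left out. Median-of-ratios rescaling turned the sign of differences that had not been called, with Mt1 at -0.0399 for CypD KO minus WT, Slc30a1 at 0.0497 for Control minus CypD KO, and Mtf1 at 0.0374 and Slc39a14 at 0.0168 for CypD OE minus CypD KO. Mtf1 for Control minus CypD KO lost its call without the filter (-0.303), in the fit of 4 libraries (-0.303) and after rescaling (-0.218), and ranged from -0.38 to -0.227 over the libraries left out, with limma adjusted p from 0.0346 to 0.18 over all alternatives. Leaving out 1 library also moved Mt2 between 0.137 and 0.371 for Control minus WT, where it was called without Control replicate 1 (limma adjusted p from 0.0334 to 0.314 over all alternatives). Uncalled differences that changed sign over the libraries left out were Slc30a1 (-0.0403 to 0.166) and Slc39a10 (-0.125 to 0.116) for CypD OE minus Control, and Mtf1 (-0.115 to 0.0281), Slc30a1 (-0.0732 to 0.133) and Slc39a14 (-0.161 to 0.0247) for CypD OE minus CypD KO.

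Centring on genes within 2 Mb, added after the data had been seen, kept 9 of the 16 calls. It gave Mt1 -0.0576, Mt2 -0.0061 and Slc39a10 -0.125 for CypD KO minus WT, where 1 member stayed called. Slc39a10 was at 0.014 for Control minus WT, and Mt1 at 0.0405 and Mt2 at -0.308 for CypD OE minus WT. For Control minus CypD KO it gave Mt2 0.298 (limma adjusted p = 0.033), Mtf1 -0.2, Slc30a1 0.086 and Slc39a10 0.139, and for CypD OE minus CypD KO Mt1 0.0981, Mtf1 0.0201, Slc39a10 0.018 and Slc39a14 0.158.

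The labels give replicate numbers but not what a number shares. The deviations of same-numbered libraries correlated at -0.0295 to 0.108 over the 6 pairs of groups, so the numbers were not taken as pairs. With a replicate block, 15 of the 16 calls were kept, and Mtf1 for Control minus CypD KO (-0.303, limma adjusted p = 0.052) was not. Where a library was left out, its partner was taken to vary like the other groups. The counts of genes called in the 7 lists of related genes stayed within 1.5 times under the 4 alternatives run on them. The list of other metallothioneins, Mt3 and Mt4, held no tested gene, so its count could not change. TPM hold no depth, so the number of reads behind the low members, Mtf1 and Slc30a1, is unknown. Their standard errors rest on the fit over all 8 libraries, with 2 in each group.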
